A study of Drosophila melanogaster with 3 samples.

Results

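The Hippo pathway restrains tissue growth. A kinase cascade, in which Hippo acts with Salvador and Warts acts with Mats, phosphorylates the transcriptional coactivator Yorkie (Yki) and keeps it out of the nucleus. When the cascade is inactive, Yki enters the nucleus, binds DNA through the TEAD family factor Scalloped (Sd) and drives genes of proliferation and cell survival. The cadherins Fat and Dachsous and the membrane adaptors Expanded and Merlin act upstream of the kinases.

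Here 10 genes of this pathway were followed in peak tables for SMARCAD1, a Snf2 family chromatin remodeler, and for CBP, a histone acetyltransferase that serves as a transcriptional coactivator. The genes were the cadherin genes ft and ds, the adaptor genes ex and Mer, the kinase core genes hpo, sav and wts, the effector genes yki and sd, and th (Diap1), which encodes an inhibitor of apoptosis and is a target of Yki. They were chosen by name, with earlier results of these data known, and every table entry that names one of them was used. The tables name 6016 genes in all, and 7 of the 10 are among them. A further 40 genes of the pathway were counted in full.

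ChIP-seq was performed in Drosophila S2 cells, an embryonic cell line with properties of blood cells. The experiment had 1 library with anti-SMARCAD1 (ASNA) antibodies, 1 with anti-CBP antibodies and 1 of input DNA, for which no table was used here; both antibodies were custom-made. All cells had received dsRNA of EGFP, a control sequence, for 6 h at 26 °C in medium free of serum and were then kept for 72 h after medium with 10% FBS was added. None had received dsRNA against SMARCAD1 or CBP. No condition was compared with another, and the antibodies were compared without replicates, so no test could be made between them.

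For SMARCAD1 3211 peaks were listed, with widths of 1792 bp at the median and 1192 and 2890 bp at the quartiles. For CBP there were 3762 peaks, with widths of 1487 bp at the median and 1018 and 2452 bp at the quartiles. Neither table holds read counts, scores or P values, so the depth is unknown, peaks cannot be ranked by strength, and a gene without a peak cannot be told from a gene with a weak signal. Of 6 genes chosen as markers of blood-like cells (srp, Hml, Pxn, ush, crq and NimC1), 2 had a SMARCAD1 peak (28.4% of 13962 protein-coding genes had one), 3 had a CBP peak (31.4% of coding genes) and 3 had neither. At least 1 antibody was listed for 3 of the 6, against 39.5% of coding genes. The count for SMARCAD1 is near its share of coding genes. Peaks do not measure RNA, and the identity of the cells was not checked further.

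SMARCAD1 peaks were listed for 6 of the 10 Hippo pathway genes, against 28.4% of coding genes. CBP peaks were listed for 7 of the 10, against 31.4% of coding genes. The same 6 genes, yki, sd, wts, sav, Mer and th, had peaks of both antibodies, against 20.3% of coding genes. Peaks of either antibody were thus listed for 7 of the 10, against 39.5% of coding genes. Only ex had CBP peaks without a SMARCAD1 peak, and hpo, ft and ds had neither. In each of these counts the share of the pathway genes was above that of all coding genes. The genes were not matched for length or for activity, and with 10 genes and 1 library per antibody the difference was not tested.

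The counts at gene starts were lower. A SMARCAD1 peak covered the listed start of 3 genes, yki, Mer and th (17.9% of coding genes), and a CBP peak covered the start of 5, yki, Mer, th, ex and sav (24.1% of coding genes). Both antibodies covered the start of yki, Mer and th, against 12.6% of coding genes, and at least 1 antibody covered the start of 5, against 29.4%. At sd and wts both antibodies had peaks inside the gene and none at its listed start. Each gene has a single listed start in the tables, so a peak inside a long gene may lie at another promoter of it, which could not be examined with these tables.

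**Figure D1:**
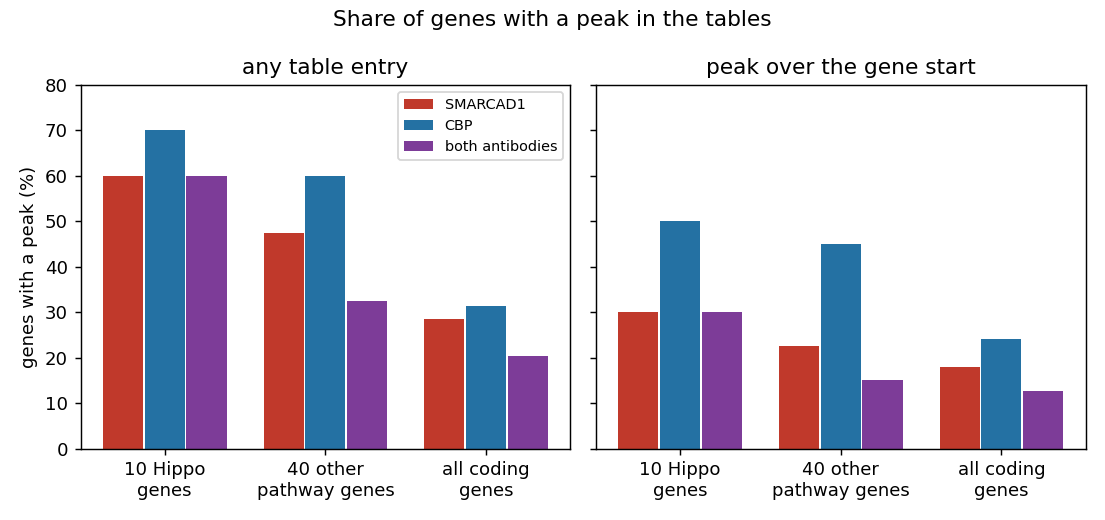
Share of genes with a peak, in percent, for the 10 Hippo pathway genes, the 40 further pathway genes and 13962 coding genes, with any table entry on the left and with a peak over the gene start on the right. Red bars stand for SMARCAD1, blue for CBP and purple for genes with both antibodies; SMARCAD1 reached 60.0% of the 10 genes with any entry and 30.0% at the start.

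The cadherin genes ft and ds were without peaks of either antibody. Fat is the receptor and Dachsous the ligand of a cell-to-cell signal that acts on Warts. Along 2L, the nearest coding genes with an entry on either side of ft were capu, with 16 coding genes between them, and CG16857, with 5. The peaks of capu and CG16857 that face ft lay 433491 bp apart. No peak of either antibody fell in this interval. On the sides of ds the nearest listed genes were CG2807, 9 coding genes away, and CG3883, 11 away, and their facing peaks were 246806 bp apart, with none in between. Both cadherin genes thus lay in long stretches of 2L in which the tables hold no peak.

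The adaptor genes ex and Mer encode FERM domain proteins that sit under the cell membrane and activate the kinases, and ex is itself induced by Yki. At ex (2L, positions 431253 to 448701, 17449 bp, plus strand) 1 CBP peak of 2879 bp was listed, from 681 bp upstream to 2197 bp downstream of the start. It was wider than 82.0% of CBP peaks and covered 12.6% of the gene. No SMARCAD1 peak overlapped it, and the nearest SMARCAD1 peak edge was 10872 bp from the gene start. At the other end of ex, the next CBP peak began 2461 bp away and was listed for crq, a scavenger receptor gene of blood cells.

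Mer (X, positions 19584627 to 19587531, 2905 bp, minus strand) had 1 peak of each antibody, and both covered its start. The SMARCAD1 peak was 1372 bp wide and ran from 1089 bp upstream to 282 bp downstream of the start. The CBP peak was 1182 bp wide and ran from 971 bp upstream to 210 bp downstream, so that it lay wholly within the SMARCAD1 peak. Their centres were 23 bp apart. Both peaks were also listed for the neighbour CG14229, and to which of these genes the signal belongs cannot be told from the tables.

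**Figure D2:**
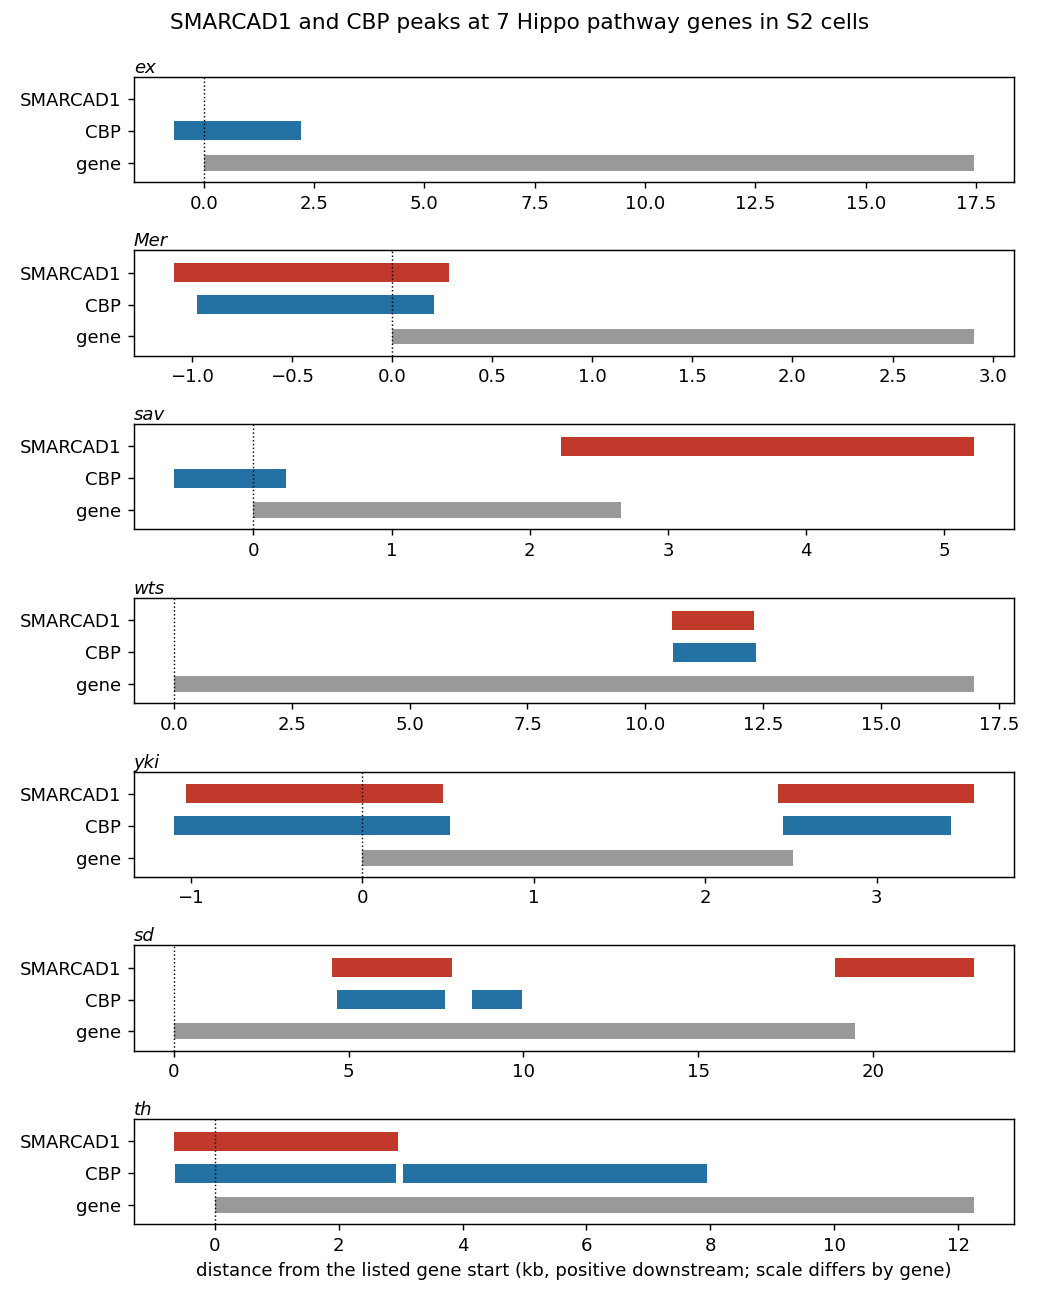
Peaks listed for the 7 genes that had any, drawn against the listed gene start (dotted line, 0 kb) in kb along the direction of transcription, with SMARCAD1 peaks in red, CBP peaks in blue and the gene in grey. Both antibodies sat over the start at Mer, yki and th and inside wts and sd, and ex had a blue bar alone; the scale differs by gene, and peaks listed for neighbour genes alone are not drawn.

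In the kinase core, hpo encodes the Ste20-like kinase at the head of the cascade, sav its scaffold protein, and wts the kinase that phosphorylates Yki. No peak was listed for hpo on 2R. The adjacent coding gene Rep had a CBP peak over its start at positions 15379217 to 15380068, and on the other side the nearest listed gene was sm, with 6 coding genes between. The interval between their facing peaks was 138666 bp long and held no peak of either antibody.

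At sav (3R, positions 18884329 to 18886991, 2663 bp, minus strand) the antibodies were listed at opposite ends of the gene. CBP had a peak of 811 bp from 577 bp upstream to 233 bp downstream of the start, and 8.37% of CBP peaks were narrower. SMARCAD1 had a peak of 2990 bp over the end of the gene, with its nearest edge 2224 bp from the start, and 76.5% of SMARCAD1 peaks were narrower. The peaks were 1990 bp apart. The SMARCAD1 peak also covered the start of the next gene, CG17119, and there it enclosed a CBP peak of 1790 bp. That CBP peak stopped 15 bp short of the end of sav and was listed for CG17119 alone. Both peaks named for sav were shared with a neighbour, CG6697 at the start and CG17119 at the end.

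At wts (3R, positions 26615379 to 26632341, 16963 bp, minus strand) 1 peak of each antibody lay inside the gene. The SMARCAD1 peak was 1726 bp wide and its centre was 11433 bp downstream of the start. The CBP peak was 1756 bp wide, with its centre at 11471 bp. They shared 1703 bp, which was 95.7% of their combined span. No other gene was named for either, and the nearest peak edge was far from the listed start, at 10571 bp for SMARCAD1 and 10594 bp for CBP.

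The effector genes had the most entries of the 10, with 4 each. yki (2R, positions 19953498 to 19956008, 2511 bp, minus strand) encodes the coactivator on which the pathway converges. It had peaks of both antibodies over its start and over its end. At the start, the SMARCAD1 peak was 1495 bp wide (from 1025 bp upstream to 469 bp downstream) and the CBP peak 1613 bp wide (from 1099 bp upstream to 513 bp downstream). The CBP peak enclosed the SMARCAD1 peak. At the end, the SMARCAD1 peak was 1144 bp wide and enclosed the CBP peak of 982 bp. Between the start and end peaks there were 1953 bp without SMARCAD1 and 1940 bp without CBP. The start peaks were shared with CG3209 and the end peaks with Rap2l. The end peaks reached little into the gene, covering 3.50% of yki for SMARCAD1 and 2.27% for CBP.

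sd (X, positions 15700276 to 15719755, 19480 bp, plus strand) encodes the TEAD family factor that brings Yki to DNA. A SMARCAD1 peak of 3435 bp and a CBP peak of 3098 bp lay inside the gene, with centres 6230 and 6216 bp downstream of the start, and the CBP peak was enclosed by the SMARCAD1 peak. A further CBP peak of 1425 bp, centred at 9252 bp, was 592 bp away from the SMARCAD1 peak and overlapped none. The second SMARCAD1 peak, 3980 bp wide, covered the end of sd and overlapped no CBP peak, and the nearest CBP peak was 8362 bp from the gene end. It was wider than 87.0% of SMARCAD1 peaks but covered 2.96% of sd, and it was also listed for the neighbour Chc, the clathrin heavy chain gene. The inside peaks were also named for CG8509, which lies within sd. In none of its entries was sd the gene with the nearest start, and the nearest peak edge to its start was 4513 bp away for SMARCAD1 and 4668 bp for CBP.

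Among the other 6015 genes of the tables, 6 had the same number of entries in every class and for each antibody as sd. The nearest to sd in the length of DNA covered by peaks of either antibody (8840 bp) were par-1 (9026 bp), tmod (9164 bp) and CG33158 (7655 bp).

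th (3L, positions 16031505 to 16043755, 12251 bp, minus strand) encodes the caspase inhibitor through which Yki promotes survival. A SMARCAD1 peak of 3619 bp ran from 661 bp upstream to 2957 bp downstream of the start. A CBP peak of 3578 bp ran from 647 bp upstream to 2930 bp downstream and lay within it. The edges of these peaks differed by 14 bp upstream and 27 bp downstream. A second CBP peak, 4903 bp wide and wider than 95.3% of CBP peaks, began 3045 bp downstream of the start. It lay 114 bp from the first CBP peak and 87 bp from the SMARCAD1 peak, with no SMARCAD1 peak over it. CBP peaks thus covered 63.9% of th and the SMARCAD1 peak 24.1%. No other gene was named for any of the 3 peaks.

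**Figure D3:**
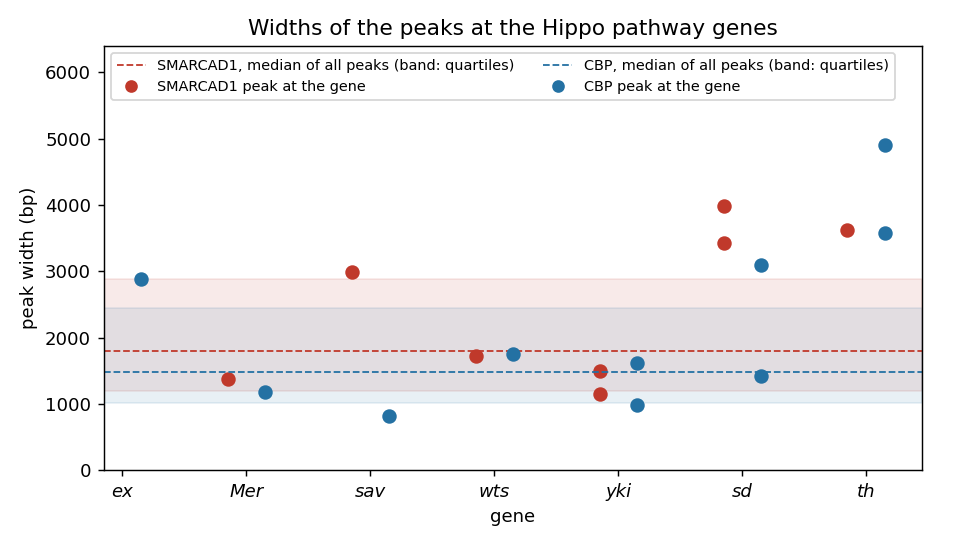
Widths in bp of the 8 SMARCAD1 peaks (red) and 10 CBP peaks (blue) at the 7 genes, 1 point per peak, with dashed lines at the median and bands at the quartiles of all peaks of each antibody. The widest CBP peak was the one inside th (4903 bp) and the narrowest the one at the start of sav (811 bp).

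Together, 8 SMARCAD1 peaks and 10 CBP peaks were listed for the genes. The SMARCAD1 peaks were 1144 to 3980 bp wide (median 2358 bp), and 4 of 8 were at least as wide as the median of all SMARCAD1 peaks. The CBP peaks were 811 to 4903 bp wide (median 1685 bp), and 6 of 10 were at least as wide as the CBP median. By class, 3 of the 8 SMARCAD1 peaks covered a gene start, 3 a gene end and 2 lay inside, which is 37.5%, 37.5% and 25%. Over all SMARCAD1 entries with a gene these classes made up 39.9%, 24.1% and 17.5%. Of the 10 CBP peaks, 5 covered a gene start, 4 lay inside and 1 covered a gene end. For CBP, peaks inside genes were thus 40% at the Hippo genes and 18.6% over all entries, and peaks over gene starts 50% and 50.5%. None of the peaks was listed as upstream or downstream of its gene, classes that made up 6.91% and 3.46% of SMARCAD1 entries and 6.89% and 3.58% of CBP entries.

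CBP overlapped 7 of the 8 SMARCAD1 peaks by at least 1 bp (87.5%, exact binomial 95% interval 47.3 to 99.7%, counting error only), against 58.9% of all SMARCAD1 peaks. The exception was the peak at the end of sd. For CBP, 6 of 10 peaks met SMARCAD1 (60.0%, interval 26.2 to 87.8%), against 52.7% of all CBP peaks. The 4 without overlap were those at the starts of ex and sav, the second peak in sd and the inner peak in th. Several of these peaks lie on the same gene and are not independent, so the intervals were not used as a test against the shares over all peaks.

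In 6 of the 7 pairs where the antibodies met, their peaks nearly coincided. The shared part was 98.9% of the combined span at th, 95.7% at wts, 92.7% at the start of yki, 90.2% at sd, 86.2% at Mer, 85.8% at the end of yki and 59.9% at the end of sav. The median over these 7 pairs was 90.2%, and over all 2024 overlapping pairs of the tables it was 76.5% (quartiles 53.3 and 88.3%). At the 40 further pathway genes, 24 pairs had a median of 75.8%, close to that of all pairs, with centres 152 bp apart at the median. The centres were 6.5 to 147 bp apart (median 23 bp), against a median of 135.5 bp over all pairs (quartiles 47.5 and 524 bp). In 6 of the 7 pairs the shared part was above the median of all pairs, the end of sav being the exception. The pairs at yki lie on 1 gene and are not independent, and the difference from all pairs was not tested.

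**Figure D4:**
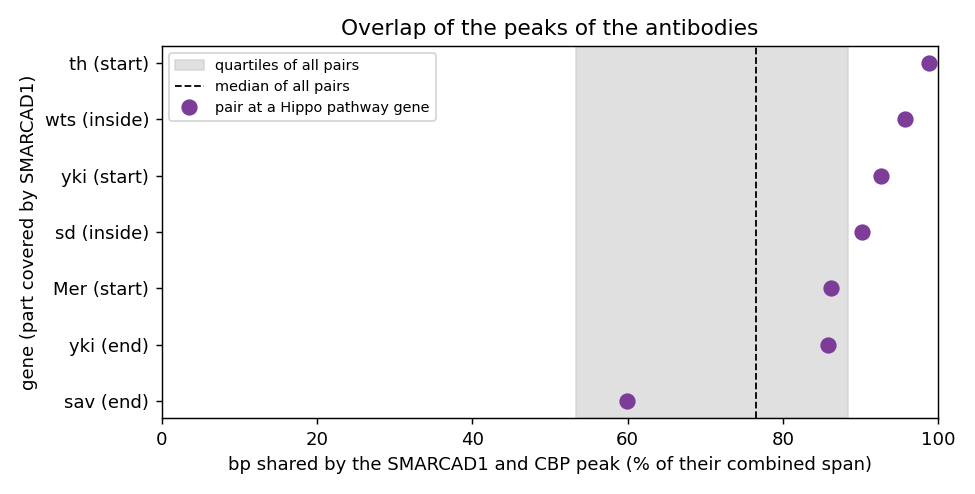
Overlap of the SMARCAD1 and CBP peak, in percent of the span that they cover together, for the 7 overlapping pairs at Hippo pathway genes (purple points, with the part of the gene covered by the SMARCAD1 peak). The dashed line and the grey band are the median and quartiles of all 2024 pairs; only the pair at the end of sav, at 59.9%, lies below the median of 76.5%.

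The surroundings of the listed genes held about as many peaks as those of other genes in the tables. Within 20000 bp of the start of each of the 7 genes there were 1 to 4 SMARCAD1 peaks (median 2) and 1 to 4 CBP peaks (median 3). The medians over all 6016 listed genes were also 2 and 3.

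The 40 further genes of the pathway were counted in the same manner, also under older names (CG33967 for kibra, CG11063 for jub, CG15072 for Sik3, CG11526 for Strip, CG10741 for Tgi, CG14023 for Ncoa6, E2f for E2f1). SMARCAD1 peaks were listed for 19 (47.5%, against 28.4% of coding genes) and CBP peaks for 24 (60.0%, against 31.4%). There were 13 genes in both tables (32.5%, against 20.3%), 6 with SMARCAD1 alone, 11 with CBP alone and 10 with neither. At scrib, counted with CBP alone, the CBP peak of 4318 bp over the start overlapped a SMARCAD1 peak not listed for scrib. A SMARCAD1 peak covered the start of 9 genes (22.5%), which is near the 17.9% of coding genes, and a CBP peak that of 18 (45.0%, against 24.1%). CBP was thus ahead of SMARCAD1 at starts here and over all coding genes alike. The start was covered by both at 6 genes, app, Rassf, Sik3, Tgi, Ncoa6 and Hipk (15%, against 12.6%). An overlap with CBP was found for 23 of their 40 SMARCAD1 peaks (57.5%, interval 40.9 to 73.0%). An overlap with SMARCAD1 was found for 24 of their 52 CBP peaks (46.2%, interval 32.2 to 60.5%). These shares were near those over all peaks, 58.9% and 52.7%. Several peaks lie on the same gene and are not independent, so the intervals were not used as a test. Myc alone had 7 SMARCAD1 peaks, 6 of them overlapping, and 9 CBP peaks, 7 of them overlapping. Many of these peaks were also listed for a neighbour, among them CG10083 at the start of Tgi, Cypl at the start of Hipk and CG32626 upstream of jub. Both entries of d were shared as well, with CheA29a and CG13088. To which gene such a peak belongs cannot be told.

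Among the 25 upstream regulators, SMARCAD1 was listed for 14 and CBP for 14, with 8 in both tables and 5 in neither. These are shares of 56.0%, 56.0% and 32.0% in both, against 28.4%, 31.4% and 20.3% of coding genes. mats, which encodes the partner of Warts, had a SMARCAD1 peak alone, of 1119 bp. This peak lay over the gene end, covered 4.61% of mats and was also listed for the neighbour pinta, and mats was not the gene with the nearest start. At dlg1, a polarity scaffold gene, 4 SMARCAD1 and 2 CBP peaks lay inside the gene. Sik3, a salt-inducible kinase gene, had 3 SMARCAD1 and 2 CBP peaks, and those over its start were centred at 602 bp for SMARCAD1 and 577 bp for CBP. The genes hppy and msn encode Ste20-like kinases that phosphorylate Warts in parallel to Hippo. Unlike hpo, each of them had 2 SMARCAD1 and 3 CBP peaks, with CBP alone over the start. The CBP peak over the start was also listed for the neighbour CG10737 at hppy and for RpL8 at msn. At msn, a CBP peak of 7446 bp inside the gene overlapped no SMARCAD1 peak. jub, which encodes a LIM protein that binds Warts, had 3 SMARCAD1 peaks and 1 CBP peak, and that CBP peak lay 7768 bp upstream.

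The start of app, a palmitoyltransferase gene of Fat signalling, was under 1 peak of each antibody, and a second SMARCAD1 peak of 5566 bp covered its end. Rassf had 1 peak of each over the start, centred 252 bp upstream for SMARCAD1 and 168 bp upstream for CBP. Strip had 2 SMARCAD1 peaks and 1 CBP peak, with no overlap among them. For d (dachs, an atypical myosin gene) there were 2 SMARCAD1 entries and no CBP entry, of which 1 is under the name CG13087, a synonym in RefSeq. kibra, which encodes an adaptor that acts with Expanded and Merlin and is also induced by Yki, had the reverse pattern. It had 4 CBP peaks, 2180 to 7864 bp wide, that covered 64.4% of the gene, and no SMARCAD1 peak.

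Of the 9 genes for nuclear cofactors, 4 had SMARCAD1 peaks, Tgi, mask, Ncoa6 and Hipk, and all of these also had CBP peaks. CBP was listed for 6. The shares were 44.4% for SMARCAD1 (28.4% of coding genes), 66.7% for CBP (31.4%) and 44.4% for both (20.3%). At Tgi, which encodes a partner of Sd that opposes Yki, 3 peaks of each antibody were listed, with those over the start centred 337 bp upstream for SMARCAD1 and 274 bp upstream for CBP. Ncoa6, a coactivator gene, had 1 peak of each over its start, of 1539 and 1523 bp. mask had 1 SMARCAD1 peak, centred at 2426 bp inside the gene, and a CBP peak at 2378 bp with another one upstream. Hipk, which encodes a kinase that promotes Yki activity, had 2 SMARCAD1 and 5 CBP peaks, all of them over the start or inside the gene.

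Among the 9 target genes, CBP peaks were listed for 6, CycE, Myc, kibra, E2f1, vn and dally (66.7%, against 31.4% of coding genes), and they covered the start of 5 (55.6%, against 24.1%). A SMARCAD1 peak was listed for Myc alone (11.1%, against 28.4%), and none covered a start, against 17.9% of coding genes. With 9 genes, 1 gene is 11.1% of the list, and none of these differences was tested. Here kibra, fj and E2f1 are counted also among the regulators or cofactors. E2f1, a cell cycle transcription factor gene, had 3 CBP peaks, of which 1 covered the start and 1 of 5786 bp lay 28559 bp inside. vn, the gene of an EGF receptor ligand, had CBP peaks over its start and its end, and dally, a glypican gene, had CBP peaks over the start and upstream. In CycE, the gene of Cyclin E, 1 CBP peak of 3027 bp was centred 2139 bp downstream of the start. Of the targets among the 10 genes, ex had CBP alone over its start, and th had both antibodies. The tables do not show which library was the more deeply sequenced.

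Myc (listed as dm, X, 12834 bp) had the most entries of all these genes, 7 for SMARCAD1 and 9 for CBP, and for each antibody only 4 genes in the tables had more. SMARCAD1 peaks lay 19796, 11394, 7957 and 3440 bp upstream of the start, 6526 and 8357 bp inside the gene, and over the gene end. CBP peaks lay 19701, 12270, 10356, 8458 and 3418 bp upstream, over the start, and 4474, 6318 and 8588 bp inside. CBP overlapped 6 of the 7 SMARCAD1 peaks at Myc, the exception being the widest, of 6928 bp, at the gene end. SMARCAD1 overlapped 7 of the 9 CBP peaks, the exceptions being the peak of 3365 bp over the start and the one inside at 4474 bp. The antibodies thus met upstream of Myc and inside it, whereas the start was listed for CBP alone.

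**Figure D5:**
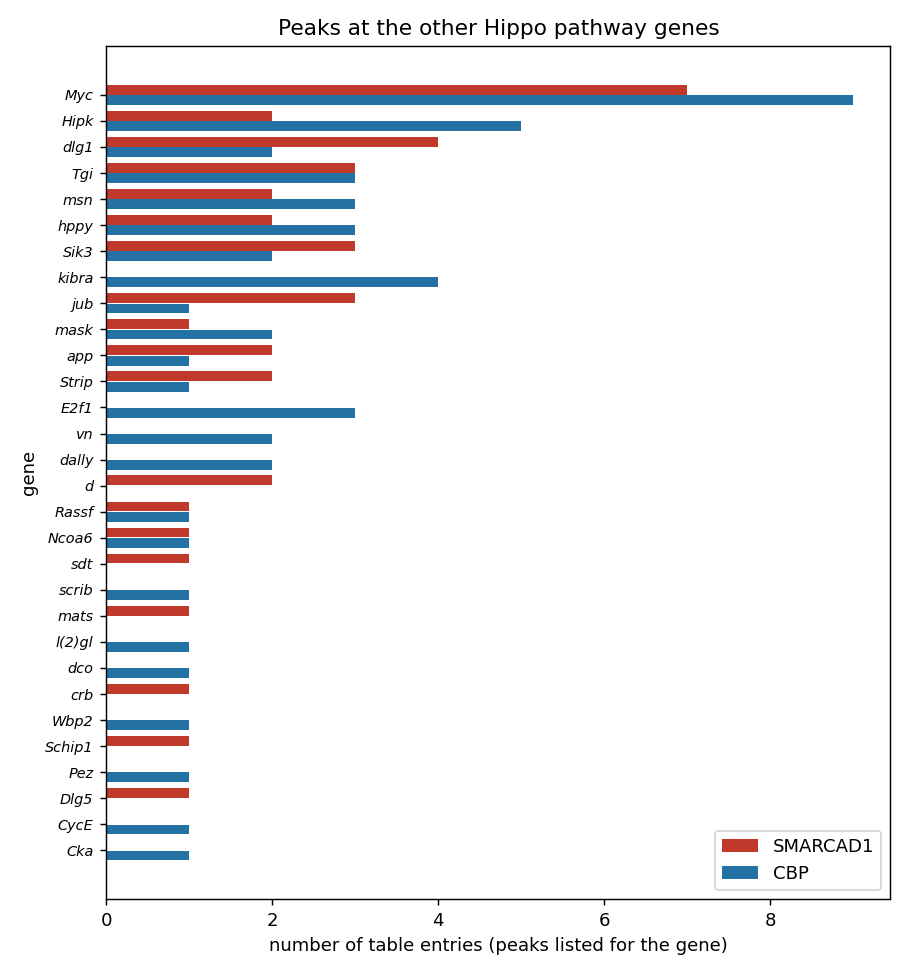
Number of table entries per gene for SMARCAD1 (red) and CBP (blue) at the 30 of the 40 further pathway genes that had any. Myc stands at the top with 7 and 9 entries. Blue bars alone are seen for 11 genes, of which kibra, E2f1, vn and dally have at least 2 entries each, and red bars alone for 6.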

How the data were processed

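The deposited tables were made by the authors from libraries of MNase-treated and sonicated chromatin. Per the methods, reads were sequenced as pairs and mapped with BWA by its single-end command (samse). Peaks were called with MACS against a control, separately for each library, and were annotated with ChIPpeakAnno. The methods give a P value setting for MACS and name no correction for multiple testing. The deposited values are other than counts or scores, namely positions, widths and distances in bp, where the distance runs from the listed gene start (TSS) to the peak midpoint. One peak can be listed for several genes. The effect of single-end mapping was not tested.

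The methods and labels name dm6, but of the 7 listed genes 1, ex, has an end as in RefSeq's Release 6 table and none has its start, so positions are those of the tables, in a build that was not settled. Of 6016 gene names 5889 (97.9%) were matched to RefSeq, from which only names, gene order and the 13962 coding genes were taken. Overlaps, shares, medians and exact (Clopper-Pearson) intervals came from scipy 1.17.1, pandas 2.3.3 and numpy 2.4.6 in Python 3.11.15, with plots from matplotlib 3.10.9. The overlap step was tested on simulated peaks. Each antibody had 1 library, so no test was run.

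All 10 genes are described with every peak, and further pathway genes are named with values where they had peaks of both antibodies or at least 2 of one antibody. Outside this rule, CycE, mats, scrib, crq and the genes that flank hpo, ft and ds were named after their values were seen. Genes most like sd were sought because sd had the most entries and the widest coverage. The genes and lists were chosen with earlier results of these data known. Alternatives varied the entries counted, the position and width of peaks and the overlap rule. A motif search in promoters was not run, since no promoter sequence was used here.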

Additional observations from a re-analysis of the deposited data

How the results depend on the processing

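Of 33 alternatives over 10 counts, 21 kept the count within 1.5 times. With peaks over the gene start alone, or with centres within 2000 bp of it, the Hippo genes with SMARCAD1 fell from 6 to 3, and those with both antibodies from 6 to 3. With peaks at least as wide as the median of their list, they fell to 3 and 2. The 7 Hippo genes with CBP became 5 or 6. Of the 40 further genes, those with SMARCAD1 went from 19 to 9 at the start and to 12 with wide peaks, and those with both antibodies from 13 to 6 at the start. With genes of the nearest TSS only, 4 of 4 SMARCAD1 peaks overlapped CBP, instead of 7 of 8. Each of these settings counts fewer peaks by construction, over all genes as well. At the start, 17.9% of coding genes had SMARCAD1, 24.1% CBP and 12.6% both. With any entry these shares were 28.4%, 31.4% and 20.3%. The shares of coding genes under the other settings were not counted. Asking for 50% of each peak to be shared, or for centres within 200 bp, left 7 and 6 overlapping peaks at the Hippo genes. For the overlap of peaks at the 40 further genes, the alternatives were chosen after seeing the data. Centres within 200 bp took the SMARCAD1 peaks that met CBP from 23 to 12 of 40. The CBP peaks that met SMARCAD1 went from 24 to 12 of 52, whereas 50% of each peak left 21 and 21. Over all 2024 overlapping pairs the centres were 135.5 bp apart at the median and 524 bp at the upper quartile. The 200 bp rule thus drops pairs over the whole series too. The shares of all peaks that meet these rules were not counted. A stricter threshold was not run, because the tables hold no score. No paired analysis was possible because there was 1 library per antibody. The depth is unknown, so an absent peak may lie below detection, and a listed peak, seen in 1 library, may be a false call.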
